A study of Homo sapiens with 3 samples.

Results

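The RUNX genes of HCT-116 cells, their shared binding partner and 2 genes tied to them were followed through the loss of the tumour suppressor *APC*. The 6 genes, *RUNX1*, *RUNX2*, *RUNX3*, *CBFB*, *RUNX1T1* and *SUPT3H*, are 6 of 23131 gene symbols in the expression table. They were selected by gene name, with the expression values of these same libraries already in view, so their levels and ratios are given as a description and support nothing beyond themselves. HCT-116 is a colon carcinoma line in which *APC* is wild-type. It expresses a mutant β-catenin with the CTNNB1ΔSer45 deletion, which protects the mutant protein from degradation. Every group shares this genotype. The treated group received a pool of anti-*APC* siRNA in 2 transfections on consecutive days and was harvested 48 h after the second. The control is titled untransfected in the sample labels, whereas its treatment label says that it received transfection reagent only (mock), and a scrambled siRNA group was not analysed here. There was 1 library per group, so no test between groups was possible and all errors given are counting errors.

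RUNX proteins are transcription factors that bind DNA through a runt domain, and they can activate or repress depending on the cofactors they meet. They bind as a heterodimer with CBFβ, which does not touch DNA itself but strengthens the binding of its partner and protects it from degradation. RUNX1 is known as a master regulator of blood formation, RUNX2 of bone formation, and RUNX3 for roles in lymphocytes, sensory neurons and the gastrointestinal epithelium. *RUNX1T1*, also called ETO, encodes a corepressor best known as the fusion partner of *RUNX1* in acute myeloid leukaemia. *SUPT3H* encodes a subunit of SAGA, a coactivator complex that acetylates histones, and it lies on the opposite strand of the *RUNX2* locus.

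Expression was measured as FPKM, a count of fragments divided by transcript length and by library size, which allows levels of different genes to be compared. The smallest steps between values correspond to about 24000000 reads in the untransfected library (quartiles of the estimate 17800000 and 26400000) and 21900000 in the anti-*APC* library. Intervals below are 95% intervals from the read numbers that these depths imply; they cover counting error only and say nothing of the spread between cultures. *APC* itself (chr5:112043215-112181936, GRCh37), the target of the siRNA pool, was at 9.15 FPKM in the untransfected and 3.43 FPKM in the anti-*APC* library, a ratio of 0.375. Of 12 markers of colon epithelium and carcinoma, 6 had a mean of at least 1 FPKM, and the list summed to 1650 and 1295 FPKM. All 6 (*EPCAM*, *CDH1*, *KRT8*, *KRT18*, *KRT19* and *CDX2*) were lower in the anti-*APC* library, with a median log2 ratio of -0.35; their part in the results below was not tested. *EPCAM* was at 190 and 170 FPKM, and *CDH1*, which encodes E-cadherin, was the 1 marker past 1.5-fold, at 19.0 and 12.1 FPKM, a ratio of 0.636. *KRT20* stayed under 1 FPKM, and *VIL1*, *CDX1*, *LGALS4*, *CDH17* and *CEACAM5* were at or near 0 in both libraries. None of 8 blood cell markers reached a mean of 1 FPKM, their sum being 0.430 and 0.359 FPKM with *CD34* at 0 in both. Of 7 fibroblast and bone markers, *COL1A1* alone did so, and the list summed to 2.90 and 3.13 FPKM. The bone genes *SP7* and *IBSP* were at or near 0.

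Of the 6 genes, 5 had a mean of at least 1 FPKM, and *RUNX2* was the one that was at least 1.5-fold higher in the anti-*APC* library. Among all 12063 genes with a mean of at least 1 FPKM that were above 0 in both libraries, 309 (2.56%) were at least 1.5-fold higher and 797 (6.61%) at least 1.5-fold lower. The members were chosen with these ratios known, and nothing is read from their count against that background. *CBFB* lay just inside the limit with a ratio of 1.49, *RUNX1* was 1.23-fold higher, *RUNX3* was nearly level, *SUPT3H* was lower by a ratio of 0.785 and *RUNX1T1* was listed at 0. In bulk RNA, a change in the level per cell and a change in the number of cells that carry the transcript cannot be told apart. The anti-*APC* library also differs from its control by the delivery of siRNA, so that this and the loss of *APC* cannot be told apart.

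**Figure D1:**
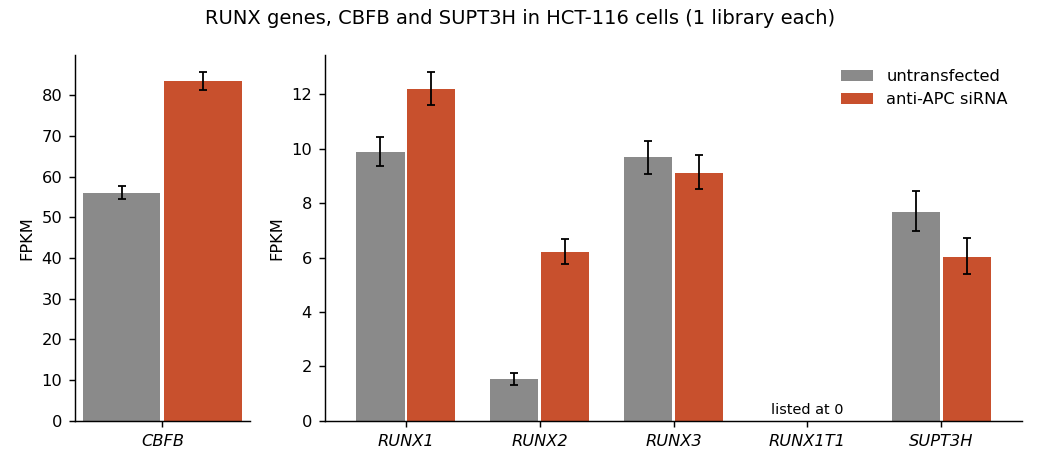
FPKM of the 6 genes in the untransfected (grey bars) and the anti-*APC* library (red bars), 1 library each, on axes that start at 0 and with a separate axis for *CBFB*; lines on the bars are 95% counting intervals. *RUNX2* stands at 1.54 and 6.21 FPKM with intervals that do not overlap, *RUNX3* has overlapping intervals, and *RUNX1T1* is listed at 0 in both libraries.

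*RUNX2*, the bone-forming member of the family, was the lowest of the 3 RUNX genes in both libraries. Its level was 1.54 FPKM in the untransfected library (interval 1.33 to 1.76) and 6.21 FPKM in the anti-*APC* library (5.78 to 6.67). These correspond to about 204 and 754 reads. The ratio was 4.04 (interval 3.46 to 4.74), or 2.01 on the log2 scale. The anti-*APC* library was thus the high one, and the 2 counting intervals lay far apart. Of the 12063 genes, 18 (0.149%) had a ratio at least as large. Ratios spread more widely at low expression, where *RUNX2* lies. Among the 2862 genes with a mean of 1 to 5 FPKM, a band chosen after the values were seen, 4.3% were at least 1.5-fold higher and 15.7% at least 1.5-fold lower. The median log2 ratio in that band was -0.17 (quartiles -0.44 and 0.08). Of all rows of the table, 50.2% had a higher level than *RUNX2* in the untransfected library and 37% in the anti-*APC* library.

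**Figure D2:**
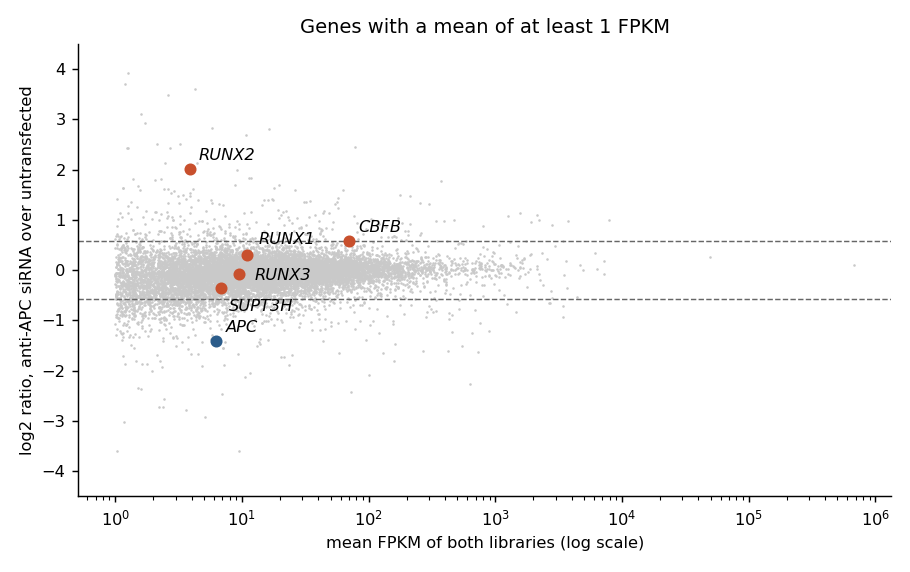
Log2 ratio of FPKM, anti-*APC* siRNA over untransfected, against the mean FPKM of both libraries (log scale) for 12062 of the 12063 genes with a mean of at least 1 FPKM; 1 gene lies outside the axis. Red points are the 5 members that passed the minimum, the blue point is *APC* and dashed lines mark 1.5-fold; *RUNX2* lies far above the upper line, *CBFB* just under it and *RUNX1*, *RUNX3* and *SUPT3H* within both lines.

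The *RUNX2* gene spans chr6:45295894-45632086 on the plus strand (GRCh37, GENCODE 44) and has a pair of known start sites. The distal promoter yields the isoform typical of bone and the proximal promoter a more widely expressed one. The distal start lies at position 45296067 and the proximal start at 45390222, 94.2 kb further on. *SUPT3H*, on the minus strand (chr6:44777054-45345690), begins at 45345671 between both, 49.6 kb after the distal and 44.6 kb before the proximal *RUNX2* start. The gene spans overlap over 49797 bases, but no exon base is shared between the 8192 exonic bases of *RUNX2* and the 5255 of *SUPT3H*. The deposited table gives both genes 1 joint locus, with 1 FPKM value per gene, so the use of the distal and proximal start could not be separated. Whether the read counting used strand is not given in the sources used here, and without strand, reads from the overlapping stretch cannot be assigned by orientation. The same joint locus also holds the microRNA gene *MIR586*, which was listed at 0 in both libraries.

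**Figure D3:**
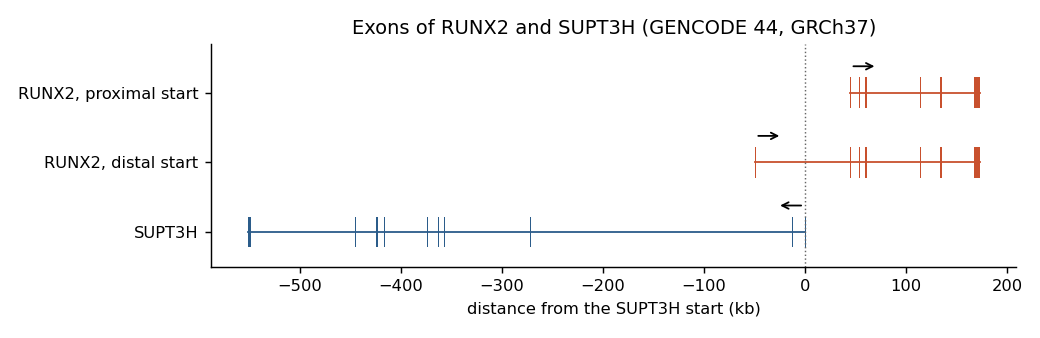
*RUNX2* transcripts from the distal and the proximal start and a *SUPT3H* transcript along the chromosome, in kilobases from the *SUPT3H* start (dotted line), to scale, with exons as boxes, introns as lines and arrows in the direction of transcription. The *SUPT3H* start lies inside the intron of the distal *RUNX2* transcript that runs from -49.15 to 44.659 kb, 49.6 kb from the start of that transcript.

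Sequences before start sites of *RUNX2*, *SUPT3H* and *RUNX3* are shown because *RUNX2* and *SUPT3H* differed in direction at a shared locus. RUNX proteins are also known to act on RUNX genes. Each line gives the 250 bases before a RefSeq start (RefSeq table on GRCh38.p14, placed on GRCh37 by an exact and unique match), 5′ to 3′ on the strand of the gene. The RefSeq and GENCODE starts are the same for distal *RUNX2*, whereas the proximal RefSeq start, 45390012, lies 210 bases before the GENCODE start given above, so the bases between both were not searched. Capitals mark the RUNX letters TGTGGT, searched on both strands and therefore also printed as ACCACA. Windows of *RUNX1*, of proximal *RUNX3* and of another *SUPT3H* start were searched too. They held no such letters and are not printed.
*RUNX2* distal, chr6:45295817-45296066, plus strand: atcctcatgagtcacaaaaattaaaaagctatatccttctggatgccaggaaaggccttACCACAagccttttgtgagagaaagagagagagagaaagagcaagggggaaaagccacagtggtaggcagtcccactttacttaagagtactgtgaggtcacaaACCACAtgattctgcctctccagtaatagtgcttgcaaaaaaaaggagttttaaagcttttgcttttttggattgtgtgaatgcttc
*RUNX2* proximal, chr6:45389762-45390011, plus strand: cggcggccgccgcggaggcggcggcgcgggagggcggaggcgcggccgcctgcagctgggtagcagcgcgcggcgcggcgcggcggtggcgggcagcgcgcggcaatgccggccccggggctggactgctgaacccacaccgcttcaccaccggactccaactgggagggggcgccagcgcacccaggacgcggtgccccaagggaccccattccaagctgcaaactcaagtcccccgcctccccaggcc
*SUPT3H*, chr6:45345672-45345921, minus strand: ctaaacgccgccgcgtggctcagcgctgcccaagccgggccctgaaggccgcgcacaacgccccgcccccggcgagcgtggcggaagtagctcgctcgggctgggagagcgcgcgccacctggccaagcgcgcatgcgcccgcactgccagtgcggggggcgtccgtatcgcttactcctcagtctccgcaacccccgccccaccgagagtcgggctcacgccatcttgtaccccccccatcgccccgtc
*RUNX3* distal, chr1:25291502-25291751, minus strand: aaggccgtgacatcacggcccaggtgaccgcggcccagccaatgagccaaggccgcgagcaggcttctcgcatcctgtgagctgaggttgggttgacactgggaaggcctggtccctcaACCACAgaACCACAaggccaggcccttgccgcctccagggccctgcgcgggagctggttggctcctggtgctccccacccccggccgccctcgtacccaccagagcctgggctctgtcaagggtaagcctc

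The distal *RUNX2* window held 2 copies of the RUNX letters, their first bases 191 and 87 bases before the start, and the distal *RUNX3* window held 2 copies at 131 and 123 bases. Both windows are those of the distal promoter of their gene. Over 7 windows of *RUNX1*, *RUNX2*, *RUNX3* and *SUPT3H*, these were the 2 that held the letters, and 10.97% of all 34788 windows in the table did so. The *RUNX1* window, chr21:36260997-36261246, lies inside the deposited locus of that gene, which runs to 36421595. Bases before the upstream end of *RUNX1* were therefore not searched. The TCF/LEF letters CTTTGA, those of the factors that β-catenin works with, were in 0 of the 7 windows and in 11.2% of all windows. The AP-1 letters TGANTCA were in the distal *RUNX2* window alone, 243 bases before the start, and in 6.591% of all windows. The distal *RUNX2* window was the least GC-rich of the 7 at 41.6%, against 78% for the proximal one and a median of 58% over all windows. A match of letters is a description and not evidence of binding, and its absence says only that these letters are not in this stretch.

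*SUPT3H* was at 7.68 FPKM in the untransfected library (interval 6.98 to 8.43) and at 6.03 FPKM in the anti-*APC* library (5.38 to 6.74). The ratio was 0.785 (0.677 to 0.910), so *SUPT3H* was lower where its neighbour *RUNX2* was higher. Of all 12063 genes, 16.6% had a ratio as low or lower, and *SUPT3H* did not reach 1.5-fold. In the untransfected library *SUPT3H* stood 4.99-fold above *RUNX2* in FPKM, and in the anti-*APC* library the quotient was 0.971. The difference, anti-*APC* minus untransfected, was -1.65 FPKM for *SUPT3H* and 4.68 FPKM for *RUNX2*, and the sum of both was 9.22 FPKM in the untransfected and 12.2 FPKM in the anti-*APC* library. The difference in *RUNX2* was thus the larger of both in size.

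*RUNX1*, the blood-forming member, was at 9.89 FPKM in the untransfected (interval 9.38 to 10.4) and 12.2 FPKM in the anti-*APC* library (11.6 to 12.8). The ratio was 1.23 (1.15 to 1.33), and 7.88% of the genes had a ratio at least as large. The gene lies at chr21:36160098-37376965 on the minus strand. Its locus in the table also holds *C21orf96*, an older symbol for the RNA gene *RUNX1-IT1* inside *RUNX1*, which was listed at 0 in both libraries. *RUNX3* (chr1:25226002-25291612, minus strand) was at 9.68 FPKM (9.09 to 10.3) in the untransfected and at 9.12 FPKM (8.52 to 9.76) in the anti-*APC* library. Its ratio of 0.942 had an interval of 0.859 to 1.03 that included 1, so no difference was detectable at this depth.

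The 3 RUNX genes together held 21.1 FPKM in the untransfected and 27.5 FPKM in the anti-*APC* library, 1.30-fold more. Within that sum the share of *RUNX2* was 7.29% in the untransfected and 22.6% in the anti-*APC* library. The share of *RUNX3* was 45.9% and 33.1%, and that of *RUNX1* was 46.8% and 44.3%. *RUNX1* and *RUNX3* did not differ beyond their counting intervals in the untransfected library, where the quotient was 1.02, whereas *RUNX1* lay above *RUNX3* in the anti-*APC* library with a quotient of 1.34. *RUNX1* exceeded *RUNX2* 6.43-fold in the untransfected and 1.96-fold in the anti-*APC* library. Over all members, the order of levels in the untransfected library was *CBFB*, *RUNX1* with *RUNX3*, *SUPT3H*, *RUNX2* and *RUNX1T1*. In the anti-*APC* library it was *CBFB*, *RUNX1*, *RUNX3*, *RUNX2* with *SUPT3H*, and *RUNX1T1*, the intervals of the joined genes overlapping.

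**Figure D4:**
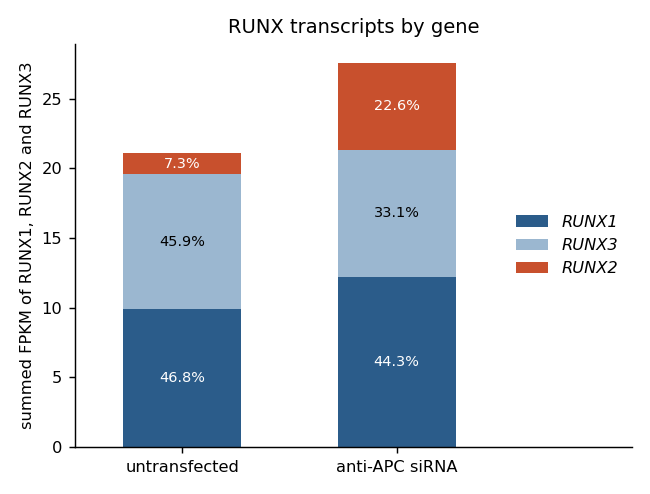
FPKM of *RUNX1*, *RUNX2* and *RUNX3* stacked for the untransfected and the anti-*APC* library, starting at 0, with the share of each gene in the sum. The sum is 21.1 and 27.5 FPKM, and the share of *RUNX2* is 7.29% and 22.6%.

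*CBFB*, which encodes the partner of all 3 RUNX proteins, was the most abundant member. It was at 56.1 FPKM in the untransfected library (interval 54.4 to 57.8) and at 83.5 FPKM in the anti-*APC* library (81.3 to 85.7). The ratio of 1.49 (1.43 to 1.55) was just short of the 1.5-fold limit, and 320 genes (2.65%) had a ratio at least as large. Subtracting the median log2 ratio of all genes, -0.05, moved it to 1.54, past the limit. *CBFB* (chr16:67062887-67134961, plus strand) stood at 2.66 times the summed RUNX level in the untransfected and at 3.03 times in the anti-*APC* library. It was thus in excess of the RUNX transcripts in both. *RUNX1T1* was listed at 0 in both libraries, so no fold was computed.

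The other genes of the RUNX pathway were taken from 6 lists, which were chosen with earlier results of these data known. Of 108 genes listed, 84 had a mean of at least 1 FPKM. In the anti-*APC* library 3 were at least 1.5-fold higher, 1 at least 1.5-fold lower and 80 lay in between, with a median log2 ratio of -0.04 against -0.05 over all genes. Over all genes, 2.56% were at least 1.5-fold higher and 6.61% at least 1.5-fold lower, and nothing particular to the lists is read from 3 and 1 of 84. No corepressor gene that passed the minimum reached 1.5-fold. Of 6 Groucho genes, a family whose full-length products bind the end of RUNX proteins and repress, 5 passed the minimum and none reached 1.5-fold. The most abundant were *AES*, a short member of the family, at 86.3 and 66.7 FPKM, and *TLE3* at 9.89 and 12.3 FPKM. Of 12 genes of the ETO family and its partners, 11 passed and none reached 1.5-fold, with a median log2 ratio of 0.02. The most abundant, the histone deacetylase genes *HDAC1* and *HDAC3*, were at 142 and 128 FPKM and at 59.7 and 49.1 FPKM.

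Of 19 coactivators and DNA-binding partners 17 passed, none of them at 1.5-fold, with a median log2 ratio of -0.08. The most abundant were *ALYREF*, an RNA export adaptor listed under its older symbol *THOC4*, at 244 and 269 FPKM, and the coactivator gene *YAP1* at 49.1 and 64.9 FPKM. All 20 genes for enzymes that modify RUNX proteins passed the minimum, with a median log2 ratio of 0.01. In this list *CDK6*, a cyclin D-dependent kinase that also binds RUNX1, was 1.53-fold higher, at 30.2 and 46.3 FPKM. The most abundant were the arginine methyltransferase gene *PRMT1*, at 194 and 150 FPKM, and *CDC20*, an activator of the anaphase-promoting complex, at 186 and 184 FPKM.

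Of 23 genes for subunits of SAGA other than *SUPT3H* 22 passed, with a median log2 ratio of -0.00. *TAF9B* was the 1 past the limit, at 22.7 and 14.7 FPKM, a ratio of 0.647. Its close paralog *TAF9* was marked as a failed estimate and listed at 0, whereas the *TAF9B* row was not so marked. Whether reads were divided between the 2 genes was not tested. The most abundant were *SF3B5* at 113 and 95.9 FPKM and the deubiquitinase gene *USP22* at 83.0 and 80.4 FPKM.

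Of 30 genes known as RUNX targets in blood, bone and other tissues, 10 passed the minimum and 6 were at 0 in both libraries. *JAG1*, a Notch ligand, was at 8.79 FPKM in the untransfected and 27.1 FPKM in the anti-*APC* library, 3.09-fold higher. *BCL2L11*, which encodes the apoptosis-promoting protein BIM, was at 6.96 and 10.7 FPKM, 1.54-fold higher. The remaining 8 lay within 1.5-fold. Of these, *CCND1* was higher, with a ratio of 1.28. Lower were *GFI1* (0.685), *VEGFA* (0.686), *TIMP1* (0.759), *CEBPA* (0.765), *ZBTB7B* (0.819), *TGFBR1* (0.883) and *CDKN1A* (0.958). The median log2 ratio of the 10 was -0.23, against -0.05 over all genes. Over all genes 2.56% were at least 1.5-fold higher, and nothing particular to RUNX targets is read from 2 of 10. *CEBPA* and *SPI1* also stand in the list of partners.

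**Figure D5:**
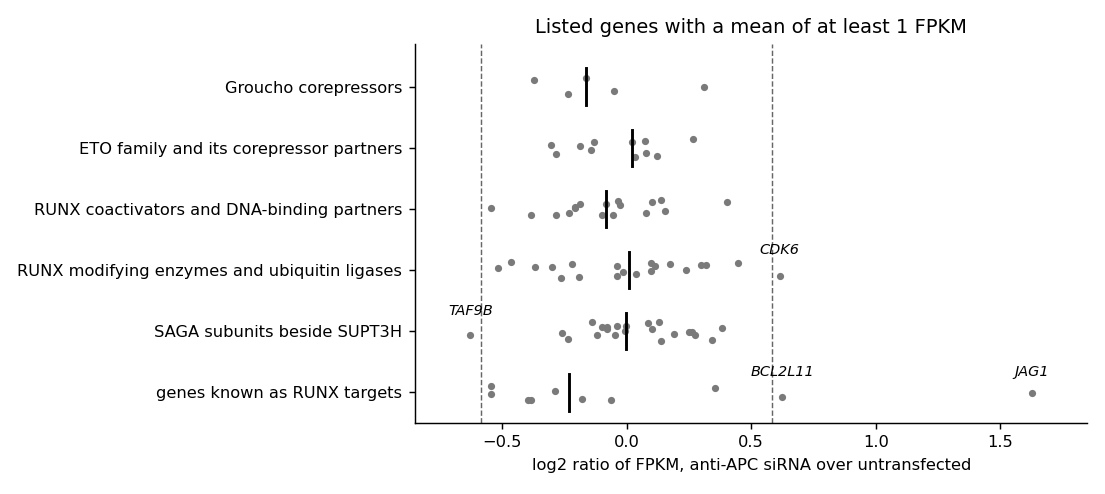
Log2 ratio of FPKM, anti-*APC* siRNA over untransfected, for the genes of each list with a mean of at least 1 FPKM, 1 point per gene, with the list median as a bar and 1.5-fold as dashed lines. *JAG1*, *BCL2L11* and *CDK6* lie beyond the upper line and *TAF9B* beyond the lower line.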

How the data were processed

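RNA from HCT-116 cells was sequenced by the authors in single-read TruSeq libraries, on a Genome Analyzer II by the methods and on a HiSeq by the labels. Cufflinks and Cuffdiff on hg19 are named in the submitters' processing notes. The aligner, versions, annotation and use of strand are not given in the sources used here. The authors deposited FPKM values for untransfected and anti-*APC* cells. Their 5 comparison columns (natural log ratio, test statistic, p-value, q-value and significance mark) were not used. The table marks 16372 of 23131 rows as OK and 269 as failed estimates, all of the latter listed at 0. The minimum used the values alone, so rows without the OK mark, such as *TIMP1* (LOWDATA), could pass. In 1624 rows the value is 0 in exactly 1 library.

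The log2 ratio is anti-*APC* over untransfected with no pseudocount, for genes above 0 in both libraries with a mean of at least 1 FPKM; past the limit means at least 1.5-fold. The sequencing depth was estimated from rows with a mean under 0.3 FPKM: 397 of 2819 share 1 log2 ratio within 0.01, taken as the value of 1 read. Absolute depth came from 49 other rows, with log2 ratios 1 unit above or below that value. These are genes with 1 annotated transcript, longer than 500 bases. Read numbers are FPKM times the length of the MANE Select transcript (or the longest coding one) within the deposited locus, and this depth. The 95% intervals are exact Poisson (levels) and Clopper-Pearson (ratios). The methods describe significance against scrambled siRNA, a library not analysed here.

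Genes named are the 6 members, *APC*, genes at member loci, listed genes past 1.5-fold and, for lists with fewer than 2 such genes, the 2 most abundant. All RUNX targets that passed the minimum are named too. The members and lists were chosen with earlier results of these data known. Alternatives were other fold limits, minimums, pseudocounts and median centring. Gene positions are from GENCODE 44 on GRCh37, and sequences from RefSeq, which gave 7 windows for 4 members. The calculations were tested on simulated data. Scripts ran under Python 3.11.15 (scipy 1.17.1, numpy 2.4.6, matplotlib 3.10.9, pandas 2.3.3).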

Additional observations from a re-analysis of the deposited data

How the results depend on the processing

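Each of the 5 members above 0 kept its direction under pseudocounts of 0.1 and 1 FPKM and under median centring, in 15 of 15 ratios. The log2 ratio of *RUNX2* was 1.51 with a pseudocount of 1 FPKM. The number of members at least 1.5-fold higher, 1 in the report, was 2 at a limit of 25% higher (the same factor is used for lower values), 2 with centring, which added *CBFB*, and 0 at a minimum mean of 5 FPKM, which leaves *RUNX2* out. The number at least that much lower was 1 at that factor, *SUPT3H*, against 0. Of the listed genes, the 3 higher were 1 at a limit of 2-fold, 8 at the 25% limit and 6 with no minimum. They were 2 with a pseudocount of 1 FPKM. The 1 lower was 0 at 2-fold, 10 at the 25% limit, 2 at a minimum of 0.1 FPKM, 3 with no minimum and 0 with centring. Of all genes, the 309 higher were 115 at 2-fold, 865 at the 25% limit, 648 at a minimum of 0.1 FPKM, 186 at 5 FPKM and 1084 with no minimum. The 797 lower were 165, 2219, 1542, 347 and 2078 in that order. A pseudocount of 1 FPKM gave 227 higher and 448 lower. Centring gave 353 higher and 652 lower. The cause was not tested where the construction of the setting does not show it. Scrambled siRNA as the control was not run. No paired analysis was possible because each condition has 1 library, and for that reason no library could be left out. The depth is an estimate, and the intervals hold no variation between cultures.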

Other observations

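The neighbours of *RUNX2* and *CBFB* were looked at by a rule chosen after seeing the data, the 4 nearest protein-coding genes on each side with a mean of at least 1 FPKM, leaving out *SUPT3H*, which overlaps *RUNX2*. Distances run from the ends of the annotated gene to the locus of the neighbour in the table. Around *RUNX2*, 1 of 8 was past 1.5-fold, and it was lower: *PLA2G7*, a phospholipase gene 1023.53 kb away, was at 2.04 FPKM in the untransfected and 0.971 FPKM in the anti-*APC* library. The highest ratio of the 8 was 1.40, that of *ENPP4* at 465.615 kb, with 6.74 and 9.44 FPKM. *CDC5L*, a splicing factor gene at 881.114 kb, was at 44.4 and 48.2 FPKM. Around *CBFB*, 1 of 8 was past the limit and again lower: *HSF4*, a heat shock factor gene, was at 1.32 and 0.694 FPKM. The nearest gene, *C16orf70* at 8.954 kb, was at 14.4 and 16.7 FPKM, a ratio of 1.16. Over all genes 6.61% were at least 1.5-fold lower, and 15.7% of those with a mean of 1 to 5 FPKM, where *PLA2G7* and *HSF4* lie, so 1 of 8 is close to that background. The highest ratios around both genes stayed under those of *RUNX2* and *CBFB* themselves. Both were picked for this look with their high ratios known, so nothing is read from that.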
